A study of Mus musculus with 18 samples.

Results

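The endothelin system was examined at the level of mRNA in the dorsal horn (DHSC) on the injected side of the spinal cord of adult C57BL/6J mice. It was represented by 6 gene symbols, the ligands *Edn1* and *Edn3*, the receptors *Ednra* and *Ednrb*, and the converting enzymes *Ece1* and *Ece2*, which matched 7 of the 55573 rows of the deposited count table. The 18 samples came from 6 females of the F1/proestrus group, 6 females of the F2/metestrus group and 6 males. All animals had received an intraplantar injection of 2% formalin and the tissue was taken 2 h later, so that no uninjected tissue was compared. F1 and F2 are behavioral classes of free-cycling females, with a short and a long quiescent interphase between the phases of formalin-evoked pain, and the estrus stage had been read from vaginal cytology. The labels number the 6 samples of each group as replicates, and the p-values below measure the spread between them. The genes were selected on results of these samples, the comparison of F2/metestrus with F1/proestrus before the others, and their differences between these female groups, and between males and the females that include them, are therefore a description without a test.

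Endothelins are short vasoactive peptides. Their precursors are cut by furin-type proteases to big endothelins, and endothelin-converting enzymes, membrane metalloproteases, release the active peptides. These act on a pair of G protein-coupled receptors: in nervous tissue *Ednra* is best known from vascular mural cells and *Ednrb* from astrocytes, while *Edn1* is a product of the endothelium, and spinal and peripheral endothelin signaling is known to modulate nociception.

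On GRCm38, the build of the mm10 genome used for mapping, GENCODE vM21 places *Edn1* (ENSMUSG00000021367) on the plus strand at chr13:42301476-42307990 and *Edn3* (ENSMUSG00000027524) on the plus strand at chr2:174760619-174784042. *Ednra* (ENSMUSG00000031616) lies on the minus strand at chr8:77663031-77724464 and *Ednrb* (ENSMUSG00000022122) on the minus strand at chr14:103814625-103844402. *Ece1* (ENSMUSG00000057530) lies on the plus strand at chr4:137862237-137965229 and *Ece2* (ENSMUSG00000022842) on the plus strand at chr16:20629828-20646485. The symbol *Ece2* also stands on a second row, ENSMUSG00000115293, which GENCODE names *Gm49333*. This readthrough gene starts upstream, shares 2937 exon bases with *Ece2* and held 95.5% to 98.2% of its counts in every sample, so the rows count largely the same reads and *Ece2* is given by the row of its own gene. An antisense gene overlaps *Edn1* over 35 exon bases (*Gm47118*, 11 to 39 counts, 6.67% to 12.5% of those of *Edn1*). Another overlaps *Ednra* over 91 exon bases (*4933431K23Rik*, 23 to 48 counts, 3.97% to 7.05% of those of *Ednra*). As the strand setting of the counting is not given in the sources used here, reads of these pairs cannot be told apart where the exons overlap.

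The bases just upstream of the annotated starts of *Edn1* and *Ednra* are shown because these are the members in which the samples of some groups did not overlap. They are RefSeq sequences of GRCm38.p6, read 5′ to 3′ on the strand of the gene and ending at the base before the GENCODE start, from chr13:42301226-42301475 (plus strand, 250 bases, 50.4% GC) and chr8:77724465-77724702 (minus strand, 238 bases, 54.6% GC).
Edn1: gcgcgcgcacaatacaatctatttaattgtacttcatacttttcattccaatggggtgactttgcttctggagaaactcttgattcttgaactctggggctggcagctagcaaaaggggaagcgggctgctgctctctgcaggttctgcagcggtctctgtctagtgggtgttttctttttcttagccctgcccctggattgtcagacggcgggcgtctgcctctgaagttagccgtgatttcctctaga
Ednra: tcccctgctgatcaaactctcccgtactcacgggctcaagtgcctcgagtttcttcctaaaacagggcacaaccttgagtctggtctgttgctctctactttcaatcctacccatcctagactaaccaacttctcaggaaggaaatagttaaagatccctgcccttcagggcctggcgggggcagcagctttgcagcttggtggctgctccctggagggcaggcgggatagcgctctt
Neither window held any of 6 motifs searched on both strands, and so no base is in capitals. These were the estrogen response half-site GGTCA, the AP-1 site TGANTCA, the GATA site AGATAA, the hypoxia response core ACGTG, the TATA box TATAAA and the GC box GGGCGG. Among 32851 RefSeq windows of 250 bases, 35.2%, 6.75%, 9.99%, 16.6%, 12.4% and 32.7% held them, in the same order. The absence of these letters describes these windows and no factor.

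Between 73590509 and 125724156 reads were counted per sample. All 8 dorsal horn markers examined, among them *Tac1*, *Penk* and *Lmx1b*, and all 7 neuronal markers were detected at a mean of 1 CPM or more. F1/proestrus replicate 5 stood apart from the rest. Its 8 markers of sensory ganglion neurons summed to 576 CPM against 15.2 to 44.0 CPM in the other 17 libraries, its 6 ventral horn markers to 321 CPM against 22.9 to 191 CPM, and its 8 meningeal fibroblast markers to 498 CPM against 229 to 475 CPM. The ventral horn list was mixed. Between F2/metestrus and F1/proestrus, DESeq2 gave log2 fold changes below 0 for its *Isl1* (-0.77) and *Prph* (-0.47). Those of *Chat* (0.29), *Mnx1* (0.53), *Slc5a7* (0.47) and *Slc18a3* (0.34) were above 0. No ventral horn tissue is therefore read from the sum of replicate 5. The libraries also fall into 2 series by the library numbers of the file header, 27 to 35 for replicates 1 to 3 and 188 to 196 for replicates 4 to 6, each with 3 samples of every group. What the numbers record is not stated.

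Per kilobase of annotated exon, *Ednrb* was the most abundant member, with 24.6 ± 2.69 normalised RPKM (SD, n = 18), higher than 89.2% of the 24849 genes ranked. *Ece1* followed with 14.2 ± 1.32 and *Ece2* with 12.7 ± 1.07 RPKM. The ligands and the other receptor were lower, with 1.53 ± 0.250 RPKM for *Edn3*, 1.22 ± 0.142 for *Ednra* and 1.06 ± 0.209 for *Edn1*. The ranges of *Ednrb* and *Ece1* did not overlap, nor did those of *Ece2* and *Edn3*. *Ece1* exceeded *Ece2* in 17 of 18 samples, but in only 1 of 18 when the longest transcript of each gene gave the length, so their order is not settled by these data. *Edn3* exceeded *Ednra* in 17 of 18 samples with overlapping ranges, and *Ednra* exceeded *Edn1* in 11 of 18. With the longest transcript as length these became 14 and 18 of 18. The means of *Ednrb* and *Ece2* were then nearer to each other, at 25.5 and 18.9 RPKM. Within samples, *Ednrb* was 16.1 to 24.6 times as abundant per length as *Ednra*, and the 3 groups overlapped in this ratio (20.9 ± 1.46 in F1/proestrus, 19.4 ± 0.980 in F2/metestrus and 20.5 ± 2.81 in males, SD, n = 6). The third endothelin ligand, *Edn2*, was close to the limit of detection with 0 to 44 counts per sample. As these are bulk samples, fewer cells of a type and less RNA per cell cannot be told apart in any of the values below.

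**Figure D1:**
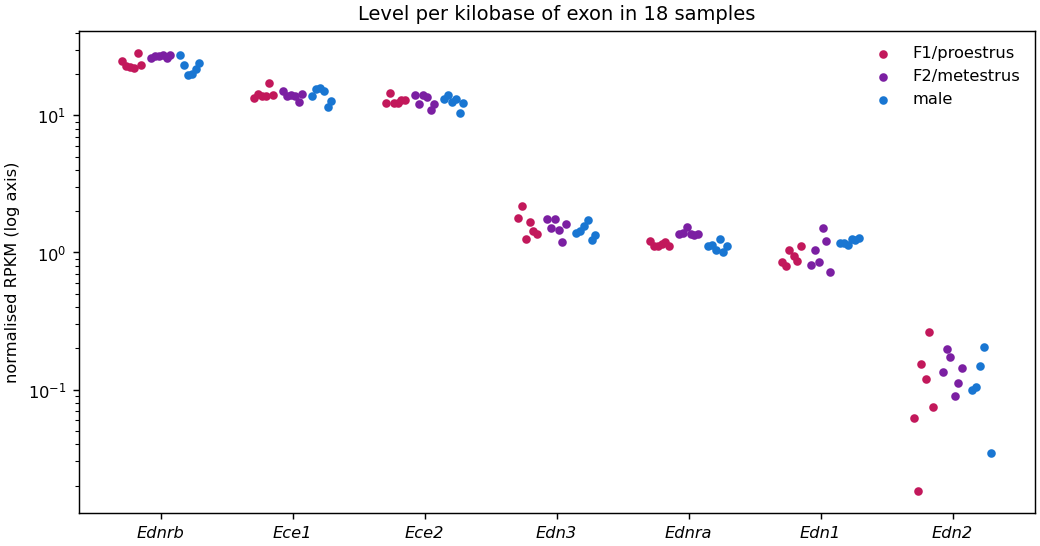
Normalised RPKM (log axis) of the members and of *Edn2* in the 18 samples, ordered by mean level and colored by group; each point is a sample, and male replicate 5, with 0 counts of *Edn2*, is not drawn for that gene. *Ednrb*, *Ece1* and *Ece2* lie between 10.4 and 28.4 RPKM, and *Edn3*, *Ednra* and *Edn1* between 0.717 and 2.20 RPKM.

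The level of the ligand *Edn1*, in CPM (counts scaled to library size with TMM), was lowest at 1.71, with a median of 1.94 and a highest value of 2.39, in F1/proestrus females. In F2/metestrus females it went from 1.53 through a median of 2.02 to 3.20 CPM. In males it went from 2.43 through a median of 2.58 to 2.71 CPM. The 6 males were thus close together, all above the 6 F1/proestrus females, and lay inside the range of the F2/metestrus females, which were the most variable group. The coefficient of variation was 28.7% in F2/metestrus, 13.0% in F1/proestrus and 4.52% in males, where counting error alone gives 6.09% at their depth of 198 to 322 counts. The means were 2.01 ± 0.262, 2.18 ± 0.626 and 2.58 ± 0.117 CPM (SD, n = 6), in the order F1/proestrus, F2/metestrus and males. Of 24862 genes tested, 44 (0.177%) had every male above every F1/proestrus sample, and *Edn1* was the only member among them.

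*Edn3*, the ligand with a preference for the B receptor, went from 5.15 through a median of 6.35 to 9.03 CPM in F1/proestrus. It went from 4.91 through 6.41 to 7.23 CPM in F2/metestrus and from 5.07 through 5.79 to 7.15 CPM in males. The 3 groups overlapped over most of their range, and the highest value belonged to F1/proestrus replicate 2. The means were 6.62 ± 1.42, 6.36 ± 0.873 and 5.94 ± 0.731 CPM (SD, n = 6). Per length, the ratio of *Edn3* to *Edn1* was 1.77 ± 0.585 in F1/proestrus, 1.65 ± 0.591 in F2/metestrus and 1.20 ± 0.159 in males, and males, at 0.992 to 1.38, lay within the range of F2/metestrus females (0.978 to 2.26).

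*Ednra*, the A receptor, went from 6.06 through a median of 6.23 to 6.62 CPM in F1/proestrus and from 7.34 through 7.49 to 8.35 CPM in F2/metestrus. In males it went from 5.56 through 6.10 to 6.85 CPM. Every F2/metestrus sample was above all 12 other samples, whereas F1/proestrus females and males overlapped. The means were 6.30 ± 0.246, 7.62 ± 0.369 and 6.08 ± 0.454 CPM (SD, n = 6). These values rested on 500 to 841 counts per sample, and the coefficient of variation within F1/proestrus (3.91%) was near the 3.93% that counting error alone gives. All F2/metestrus samples were above all F1/proestrus samples for 13 of 24042 genes (0.0541%), above all 12 other samples for 2 of 24862 (0.00804%) and above all males for 79 (0.318%). *Ednra* was the only member in each of these counts. As the set was chosen with this comparison known, nothing is read from its place among them. The other gene in which F2/metestrus exceeded the 12 other samples was *Clic4*, a chloride intracellular channel protein, at 465 to 505 against 405 to 458 CPM. It was named after its values were seen.

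The values of *Ednra* are also given by library series, where the order of the groups follows from that over all samples. In replicates 1 to 3 the F2/metestrus samples lay between 7.48 and 8.35 CPM, against 6.06 to 6.62 CPM in F1/proestrus and 5.67 to 6.17 CPM in males. In replicates 4 to 6 they lay between 7.34 and 7.50 CPM, against 6.13 to 6.57 and 5.56 to 6.85 CPM. The highest value, 8.35 CPM, belonged to F2/metestrus replicate 3, and the other 5 samples of that group stayed within 7.34 and 7.60 CPM.

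*Ednrb*, the B receptor, went from 94.9 through a median of 99.0 to 121 CPM in F1/proestrus, from 112 through 115 to 118 CPM in F2/metestrus and from 84.5 through 95.8 to 116 CPM in males. The F2/metestrus samples were close together near the top of the range of all samples, and the other groups overlapped them through single libraries. In F1/proestrus this library was replicate 5, the one with ganglion markers, without which the group ended at 106 CPM, and in males it was replicate 1. The means were 103 ± 9.76, 115 ± 2.69 and 96.8 ± 11.9 CPM (SD, n = 6), and F1/proestrus without replicate 5 had 99.1 ± 4.34 CPM (SD, n = 5). Counting error was below these spreads, at 0.951% to 0.987% of the mean, against coefficients of variation of 2.34% in F2/metestrus and 12.3% in males.

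*Ece1* went from 71.1 through a median of 74.0 to 91.8 CPM in F1/proestrus, from 65.8 through 74.3 to 79.1 CPM in F2/metestrus and from 61.1 through 76.5 to 84.3 CPM in males. The groups overlapped, and the highest of the 18 values was again F1/proestrus replicate 5. The means were 76.6 ± 7.57, 73.8 ± 4.35 and 74.8 ± 9.20 CPM (SD, n = 6). Without replicate 5, F1/proestrus had 73.6 ± 1.66 CPM (SD, n = 5). The part of the tissues marked in that library in this value was not tested.

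*Ece2*, the converting enzyme known mainly from neurons and endocrine cells, went from 62.7 through a median of 64.4 to 73.8 CPM in F1/proestrus. It went from 55.7 through 65.4 to 72.0 CPM in F2/metestrus and from 53.4 through 65.3 to 72.3 CPM in males. The means were 65.7 ± 4.23, 65.3 ± 6.47 and 64.3 ± 6.41 CPM (SD, n = 6), and the groups overlapped over nearly their whole range. Per length, the ratio of *Ece1* to *Ece2* stayed between 0.988 and 1.35 in the 18 samples.

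**Figure D2:**
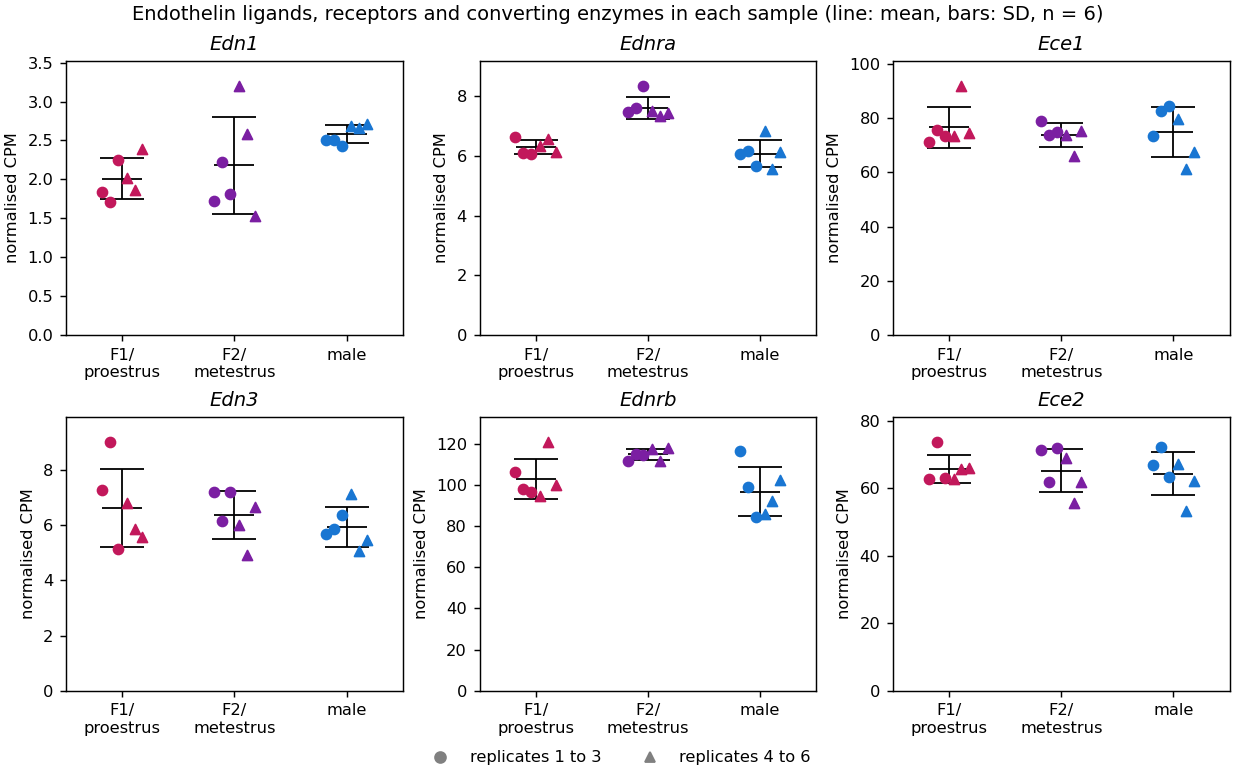
Normalised CPM of each member in each sample, by group (F1/proestrus, F2/metestrus, male); circles are replicates 1 to 3, triangles replicates 4 to 6, the central line is the mean and the bars the SD of 6 samples. The F2/metestrus points of *Ednra*, 7.34 to 8.35 CPM, stand above the 12 others, the male points of *Edn1*, 2.43 to 2.71 CPM, stand above those of F1/proestrus, and the high F1/proestrus points of *Ednrb* and *Ece1* are replicate 5.

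To ask how the system differed between the female groups, edgeR's quasi-likelihood fit of the 12 females was used for fold changes and their standard errors (SE). *Ednra* was 1.21-fold higher in F2/metestrus (log2 fold change 0.27, SE 0.06) and *Ednrb* 1.12-fold higher (0.16, SE 0.06). The remaining members differed by at most 1.08-fold, with log2 fold changes of 0.11 for *Edn1* (SE 0.17), -0.06 for *Edn3* (SE 0.14), -0.06 for *Ece1* (SE 0.07) and -0.01 for *Ece2* (SE 0.07). None of the 6 was among the genes called at a false discovery rate (FDR) of 5%, and neither was any other gene, with 0 of 24042 called (0%), 596 below an unadjusted p of 0.05, and 2 called by DESeq2. The log2 fold change of *Ednra* was 0.31 in replicates 1 to 3 and 0.23 in replicates 4 to 6, and that of *Ednrb* 0.18 and 0.14. For *Edn1* these were -0.01 and 0.22. Without F1/proestrus replicate 5, *Ednrb* had a log2 fold change of 0.21, *Ednra* of 0.28 and *Ece1* of 0.00. The small values of the other members turned with single libraries. That of *Edn1* was -0.03 without F2/metestrus replicate 4 and ranged up to 0.20 over the samples left out, and that of *Edn3* was 0.05 without F1/proestrus replicate 2, 0.01 without F2/metestrus replicate 5 and ranged down to -0.12. *Ece2* ranged from -0.04 to 0.03.

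**Figure D3:**
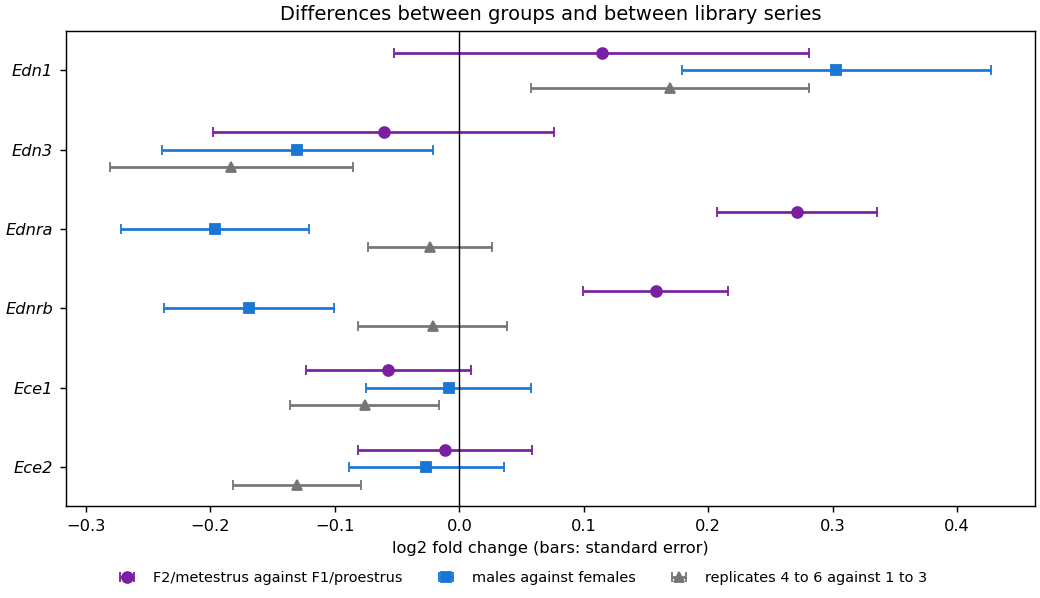
Log2 fold changes of the members from edgeR (x axis, bars are SE) for F2/metestrus against F1/proestrus (6 and 6 samples), males against females (6 and 12) and replicates 4 to 6 against 1 to 3 (9 and 9). The receptors are to the right of 0 in the first comparison (0.27 and 0.16) and to the left in the second (-0.20 and -0.17), and no member passed an FDR of 5% in any of them.

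Males were then compared with the 12 females in a fit of all samples. The log2 fold change of males against females was -0.20 for *Ednra* (SE 0.08) and -0.17 for *Ednrb* (SE 0.07). For *Edn1* it was 0.30, or 1.23-fold (SE 0.12). It was -0.13 for *Edn3* (SE 0.11), -0.01 for *Ece1* (SE 0.07) and -0.03 for *Ece2* (SE 0.06). edgeR and DESeq2 called 0 of the 6 members, and edgeR called 49 of 24862 genes (0.197%). Set against each female group alone, *Ednra* had a log2 difference of -0.06 from F1/proestrus and -0.34 from F2/metestrus. *Ednrb* had -0.10 and -0.26, and *Edn1* had 0.35 and 0.24. Within the library series, the log2 fold change between males and females was 0.35 and 0.25 for *Edn1*, -0.25 and -0.15 for *Ednra*, and -0.11 and -0.24 for *Ednrb*, in replicates 1 to 3 and 4 to 6. These keep the direction of the fit of all samples.

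Some markers of other cells or regions were called between the sexes. The 8 dorsal horn markers summed to 575 to 827 CPM in males, 407 to 602 in F1/proestrus and 420.5 to 515 in F2/metestrus, and edgeR called 2 of the 8 higher in males, *Penk* and *Grp*, to which DESeq2 added *Pdyn*. The 6 ventral horn markers summed to 22.9 to 165 CPM in males, 33.0 to 321 in F1/proestrus and 129 to 185 in F2/metestrus, and both tools called 0 of them. The 6 Schwann cell markers summed to 1897 to 4591 CPM in males, 1299 to 2675 in F1/proestrus and 1336 to 1937 in F2/metestrus, and edgeR called 1 higher in males, *Ncmap*, and DESeq2 also *Prx*. The 7 neutrophil markers summed to 4.69 to 24.8 CPM in males, 1.66 to 7.98 in F1/proestrus and 4.90 to 8.50 in F2/metestrus, and edgeR called 1 higher in males, *Mpo*, and DESeq2 also *S100a9*. The 7 microglial markers summed to 341 to 375 CPM in males, 304 to 350.4 in F1/proestrus and 320.3 to 353 in F2/metestrus, of which edgeR called 0 and DESeq2 2 higher in males, *Csf1r* and *Siglech*. Their part in the differences of *Edn1*, *Ednra* and *Ednrb* was not tested. Of the cell types best known for these genes, the 10 endothelial markers summed to 301 to 362, 300.5 to 340.4 and 276 to 381 CPM in F1/proestrus, F2/metestrus and males. The 10 mural markers summed to 293 to 349, 249.95 to 333 and 273 to 331 CPM, and the 10 astrocyte markers to 6453 to 7996, 6973 to 7505 and 7208 to 7406 CPM. edgeR and DESeq2 called 0 of these 30 markers in either comparison. Over all genes tested in edgeR, 596 of 24042 had an unadjusted p below 0.05 between the female groups and 2416 of 24862 between the sexes. Of the 30 markers, 2 were below it between the female groups and 7 between the sexes. The 2 were the mural genes *Acta2* and *Myh11*, with log2 fold changes of -0.33 and -0.45 in F2/metestrus against F1/proestrus. All 10 mural markers had a value below 0 in that comparison, with a median of -0.10 against 0.00 over all genes tested. Other lists also had values on 1 side of 0 between the female groups. All 8 dorsal horn markers were below 0 (-0.40 to -0.01), as were the 6 sensory ganglion markers tested (-8.84 to -0.70), which were high in F1/proestrus replicate 5. The 6 neutrophil markers tested (0.38 or more, with a median of 0.55), all 6 oligodendrocyte markers (0.06 to 0.14) and all 7 microglial markers (0.02 to 0.20) were above 0, and the 10 astrocyte markers ran from -0.05 to 0.09. Between the sexes the dorsal horn, Schwann cell and neutrophil lists lay above 0 in males, with medians of 0.29, 0.64 and 1.39. The ventral horn and red blood cell lists lay below 0, with medians of -0.59 and -0.14. The sensory ganglion list was below 0 in edgeR (median -3.55). Its females include F1/proestrus replicate 5, at 576 CPM against 15.2 to 44.0 CPM in the other 17 libraries. In DESeq2 the sensory ganglion markers had both signs between the sexes, from -0.77 for *Scn10a* to 0.78 for *Trpv1*, so no direction is read from this list. Across the 18 samples, *Ednra* had a Pearson r of -0.58 with the summed dorsal horn markers and 0.50 with the ventral horn markers. With the mural markers r was -0.04, and 0.30 after centring within each group and library series. For *Ednrb* r was -0.59 with dorsal horn and -0.19 with astrocyte markers. For *Edn1* it was -0.32 with endothelial, 0.55 with astrocyte and 0.61 with dorsal horn markers. The part of these cells and regions in the values of *Edn1*, *Ednra* and *Ednrb* was not tested. No marker of these lists was at 0 in all samples.

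The library series differed in many genes, and the members were not among those called. Of 24038 genes, 6637 (27.6%) were called between replicates 4 to 6 and 1 to 3 in a fit with the group as a term, and 0 of the 6 members were in edgeR or DESeq2, with 1 at an unadjusted p below 0.05 in edgeR. The nearest were *Ece2*, with a log2 fold change of -0.13 (SE 0.05, adjusted p = 0.0642 in edgeR), and *Edn3*, with -0.18 (SE 0.10, adjusted p = 0.178). *Ednra* and *Ednrb* had log2 fold changes of -0.02 each (SE 0.05 and 0.06). Without male replicate 4, *Ece2* passed the threshold (log2 fold change -0.15, adjusted p = 0.0423 in edgeR), and its adjusted p ranged from 0.0423 to 0.267 over the samples left out.

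The genes around the members were taken from 10 lists of the pathway with 51 genes, of which 49 were tested. edgeR and DESeq2 called 0 of them in either direction between the female groups or between the sexes. In edgeR 1 and 6 of the 49 had an unadjusted p below 0.05, against 596 of 24042 and 2416 of 24862 over all genes. The median log2 fold change was 0.00 in both comparisons, as over all genes tested. Between the sexes, the gene furthest from 0 in the list of phospholipase C and IP3 receptors was *Itpr3*, an IP3-gated calcium channel (log2 fold change 0.36, SE 0.17). Among the transcription factors known at the *Edn1* promoter it was the flow-induced *Klf2* (-0.26, SE 0.11). In the remaining lists it was *Edn2* (-0.41, SE 0.48), the proprotein convertase *Pcsk6* (0.10, SE 0.04), the neprilysin relative *Mmel1* (-0.18, SE 0.10) and the G protein subunit *Gnas* (0.10, SE 0.06). For the kinase *Rock2* it was -0.13 (SE 0.10), for the arrestin *Arrb2* 0.17 (SE 0.08), for *Mapk3* 0.05 (SE 0.08) and for the guanylate cyclase subunit *Gucy1a1* -0.18 (SE 0.06). The adjusted p of these genes was between 0.323 and 0.849 in edgeR. Between the library series edgeR called 5 of the 49 higher and 14 lower in replicates 4 to 6 (DESeq2 6 and 14), where over all 24038 genes it called 2981 (12.4%) higher and 3656 (15.2%) lower. With size factors in place of TMM the latter were 3527 and 3231. Those higher were the G protein subunits *Gnas*, *Gnai2*, *Gna11* and *Gna12* and the arrestin *Arrb2*. Those lower included all 3 IP3 receptors, *Itpr1* (log2 fold change -0.69), *Itpr2* (-0.38) and *Itpr3* (-0.57), the phospholipases *Plcb1* and *Plcb4*, the kinases *Prkca*, *Rock2* and *Grk3*, and *Gnaq*, *Gna13*, *Arrb1*, *Gucy1b1* and *Smad3*. Cell type markers moved between the series as well. In replicates 4 to 6 edgeR called 5 of 10 endothelial, 4 of 10 mural and 2 of 10 astrocyte markers lower and 0 of these higher, with medians of -0.20, -0.15 and -0.03. DESeq2 called 4, 4 and 2 lower and 1 endothelial marker higher. Of the 8 dorsal horn markers both tools called 5 higher and 0 lower, with a median of 0.23, and edgeR called 3 of 7 microglial markers higher and 1 lower, 2 of 6 Schwann cell markers higher, and 1 oligodendrocyte and 1 neuronal marker higher. Their part in the pathway values was not tested.

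Among the members themselves, the receptors were high together in F2/metestrus. Across the 18 samples the log2 CPM of *Ednrb* and *Ednra* had a Pearson r of 0.65 (Spearman rho 0.60, and r = 0.61 without the 2 samples farthest from the median of *Ednra*). After centring within each group and library series r was 0.24. The ligands were arranged the opposite way: samples with more *Edn3* had less *Edn1* (r = -0.61, rho = -0.61, r = -0.53 without the 2 samples farthest from the median of *Edn3*), and r was -0.51 after the same centring. *Ece1* and *Ece2* had r = 0.62 (0.58 centred). *Edn3* and *Ece2* had r = 0.63 (0.61 centred, and 0.43 without the 2 samples farthest from the median of *Edn3*). These are descriptions over 18 libraries that share groups, series and normalization.

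**Figure D4:**
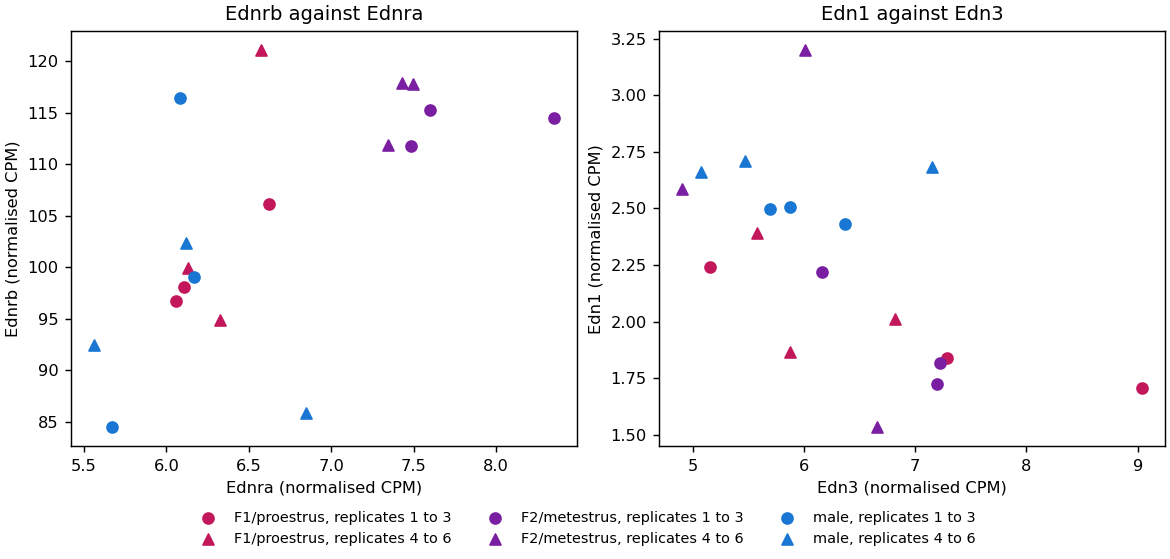
Normalised CPM of *Ednrb* against *Ednra* (left) and of *Edn1* against *Edn3* (right) in the 18 samples, colored by group, with circles for replicates 1 to 3 and triangles for replicates 4 to 6. The F2/metestrus samples form the upper right of the receptor plot, from 7.34 to 8.35 CPM of *Ednra* and 112 to 118 CPM of *Ednrb*, and in the ligand plot the points run from upper left to lower right (r = -0.61).

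The 3 genes whose log2 CPM ran most like that of each member across the 18 samples were sought among 17761 other genes with a mean of at least 1 CPM. For *Edn1* they were *Rab13*, a small GTPase (r = 0.86), *Cdkn1a*, the cyclin-dependent kinase inhibitor p21 (r = 0.84, and the first of all genes by rank, rho = 0.91), and ENSMUSG00000117050 (r = 0.84). *Cdkn1a* had a mean of 102 CPM in males, against 75.7 in F1/proestrus and 74.0 in F2/metestrus. For *Edn3* they were *Per2*, a repressor of the circadian clock (r = 0.87), *Fmo2*, a flavin monooxygenase (r = 0.85), and *Jmjd4* (r = 0.80). *Per2* and *Fmo2* were also the first and second of all genes after centring within groups and series (r = 0.88 and 0.87). For *Ednra* they were *9330159M07Rik* (r = 0.78), *Gm4654* (r = 0.77) and *Immt*, a mitochondrial inner membrane protein (r = 0.75), with 0.39, 0.56 and 0.52 after centring. For *Ednrb* they were *Csgalnact1*, an enzyme of chondroitin sulfate synthesis (r = 0.80), *Tmem41b* (r = 0.78) and the lysophosphatidic acid receptor *Lpar1* (r = 0.77), with 0.72, 0.59 and 0.53 after centring. For *Ece1* they were the deubiquitinase *Usp19* (r = 0.91), the natriuretic peptide receptor *Npr2* (r = 0.88) and *Gm24197* (r = 0.88). For *Ece2*, with its readthrough row left aside, they were *Slc22a17*, *Map3k4* and *Dnmt1* (r = 0.86 each).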

How the data were processed

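PolyA RNA (per the labels) of the ipsilateral DHSC was sequenced for 18 samples. The authors deposited raw counts of reads on the exons of each Ensembl gene, uniquely mapped to mm10 with Subread (version 2.0.3 in the submitters' processing notes) and counted with featureCounts. The methods name TruSeq libraries, whereas the labels describe SMART-Seq amplification and Nextera XT. The strand setting and the treatment of reads over several genes are not given in the sources used here. The authors also deposited the fold changes and p-values of their own DESeq2 comparison, which were not used. Only the symbol column of that table was read.

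Counts were filtered with filterByExpr (minimum count 10, minimum total 15), normalised with TMM and fitted with edgeR 4.0.16 (R 4.3.3), by quasi-likelihood, with p-values adjusted over all genes tested (Benjamini-Hochberg, FDR 5%). Each SE was taken from the effect and its F statistic. Females were compared in a fit of 12 samples, the sexes and the library series in fits of 18. Among these, only the fit of the library series had a further term, the group. RPKM used the GENCODE vM21 exon length. Log2 CPM for correlations used a prior count of 2. The fit was tested on simulated data. Alternatives were DESeq2 1.42.0, size factors, other filters, the replicate block, the library series and leaving out each sample. By a fixed rule, genes named beyond the members are those of a pathway list past the FDR, the furthest from 0 of each list between the sexes, and the 3 most like each member. *Clic4* and the single markers named were chosen after their values were seen. A gene that the rule names is not reported here. The members and lists were chosen with earlier results of these data known.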

Additional observations from a re-analysis of the deposited data

Results flagged for a closer look

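In 3 of 18 tests of a single sample against its own group of 6 (6 members in 3 groups, by Dixon's ratio of gap to range), a sample stood far from the others, where chance alone flags about 1 in 20. *Ednra* was at 8.35 CPM in F2/metestrus replicate 3, the highest of its group. *Ece1* was at 91.8 CPM in F1/proestrus replicate 5, the library with the high sensory ganglion markers. *Ece2* was at 73.8 CPM in F1/proestrus replicate 2, the library that also held the highest *Edn3*.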

How the results depend on the processing

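Of 532 recomputed values of members and of genes like them, 519 counted as kept, 12 moved and 1 became a call (*Ece2* between the series, given above). Fold changes between the female groups and levels were kept if they moved by less than the spread between samples. Fold changes between the sexes and the series were kept if the call did not change, whatever their size or sign. Correlations were kept within a fixed limit. Under every alternative *Ednra* and *Ednrb* stayed higher in F2/metestrus than in F1/proestrus (20 of 20 fits) and lower in males than in females (28 of 28), *Edn1* stayed higher in males (28 of 28), and no member was called in these comparisons, which were known when the genes were chosen. As the female groups did not overlap in *Ednra*, its sign between them in fits on fewer samples follows from that gap and adds no support. The sign held in 18 of 20 fits between the female groups for *Edn1*, *Edn3* and *Ece1*, and in 15 of 20 for *Ece2*. Leaving out samples, the log2 fold change between the female groups ranged from 0.24 to 0.29 for *Ednra* and from 0.14 to 0.21 for *Ednrb*, but from -0.03 to 0.20 for *Edn1*, -0.12 to 0.05 for *Edn3*, -0.08 to 0.00 for *Ece1* and -0.04 to 0.03 for *Ece2*. Between the sexes it ranged from -0.24 to -0.17 for *Ednra*, -0.24 to -0.14 for *Ednrb*, 0.26 to 0.37 for *Edn1*, -0.20 to -0.08 for *Edn3*, -0.06 to 0.03 for *Ece1* and -0.07 to 0.01 for *Ece2*. With the longest transcript as length, the mean level was 2.02 RPKM for *Edn3*, 1.84 for *Ednra*, 15.6 for *Ece1* and 18.9 for *Ece2*.

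Genes called between the female groups numbered 0 in all edgeR fits and 2 in DESeq2. Between the sexes there were 49, against 167 in DESeq2, 31 with at least 10 counts in every sample, 134 with the library series as a covariate, 16 and 13 in replicates 1 to 3 and 4 to 6 alone, 13 against F1/proestrus alone and 22 against F2/metestrus alone. Leaving out samples gave 25 (without male replicate 5) to 77 (without F1/proestrus replicate 5), with 30 without male replicate 4. Between the series it gave 5832 to 6913. The causes were not tested.

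With the replicate block there were 0 calls between the female groups and 148 between the sexes. Nothing in the labels says what the numbers share. The deviations of same-numbered samples correlated above 0.1 in 2 of 6 pairs of F1/proestrus with F2/metestrus (-0.01 to 0.22), 3 of 6 of F1/proestrus with males (-0.10 to 0.23) and 4 of 6 of F2/metestrus with males (0.00 to 0.17), and samples correlated best with their own number in 1, 2 and 2 of 6. Since not every pair was above 0.1, the samples were not taken as paired. In the block fit *Ednra* had a log2 fold change of 0.27 between the female groups and -0.20 between the sexes. Depth limits *Edn1* most, with 154 to 322 counts among the members.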
